A study of Mus musculus with 24 samples.

Results

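The 4 protein kinases that phosphorylate the translation initiation factor eIF2α were examined in cultured osteoblasts (OBs). With them were the regulatory subunits of the phosphatase complexes that reverse this phosphorylation, and a mitochondrial protease upstream of the kinase HRI. The 7 genes were chosen by symbol among the 55335 genes counted in each library. They were *Eif2ak1* (HRI), *Eif2ak2* (PKR), *Eif2ak3* (PERK), *Eif2ak4* (GCN2), *Ppp1r15a* (GADD34), *Ppp1r15b* (CReP) and *Oma1*. All 7 were counted in all 24 libraries and passed the filter on low counts in every comparison. The libraries were made from polyadenylated RNA of primary OBs of mouse parietal bones kept under osteogenic differentiation, either wild type (WT) or heterozygous (Het) for G610C, a mutation that puts cysteine in place of a helix glycine of the proα2(I) chain (gene *Col1a2*) of type I procollagen. There were 4 libraries per genotype at each of days 8, 14 and 21. Each preparation pooled pups of the same genotype, so libraries differ as wells and preparations do, and variation between animals was not measured.

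Phosphorylated eIF2α slows the start of translation at most mRNAs and favours translation of a few others, such as the one for the transcription factor ATF4, in what is known as the integrated stress response (ISR). Each kinase senses a different disturbance. PERK sits in the membrane of the endoplasmic reticulum (ER) and is activated by misfolded proteins, PKR by double-stranded RNA, GCN2 by uncharged tRNA at stalled ribosomes, and HRI by heme shortage or, through the mitochondrial protease OMA1 and its substrate DELE1, by mitochondrial stress. GADD34 and CReP bring the catalytic subunit of protein phosphatase 1 (PP1) to eIF2α. CReP does so in unstressed cells, whereas GADD34 is made in the course of the ISR from a gene that ATF4 and CHOP activate. Abundance of mRNA says nothing of the activity of a kinase, which depends on its phosphorylation, and neither protein nor phosphorylation was measured in these libraries.

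The total count was between 17140202 and 59734231 per library, with a median of 48340136, and the 6 libraries numbered replicate 1 were the shallowest (17140202 to 25825762). The replicate 1 libraries also stood apart in a pair of the genes used for scaling. *Mrfap1* was at 29.3 to 35.6% of the scaling mean in them and at 36.0 to 45.9% in the 18 others, and *Sdha* at 36.3 to 39.0% against 30.5 to 35.1%. For this reason the main results are also given for replicate 1 and for the other replicates separately. The OB markers *Col1a1*, *Col1a2*, *Runx2*, *Sp7*, *Ibsp*, *Bglap*, *Alpl*, *Dmp1* and *Ifitm5* had counts in every library, and the globin genes *Hbb-bs* and *Hbb-bt* were at 0 in all 24. Markers of macrophages and osteoclasts were also present. Their summed level (8 genes) was 70 to 131% of the scaling mean at day 8 and 206 to 1569% later.

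Among the 7 genes, *Ppp1r15a* and *Eif2ak3* were the ones that passed the test for a genotype difference at days 14 and 21, in opposite directions. *Ppp1r15a* lies at chr7:45522916-45526268 on the minus strand (GRCm38), with 2937 bases of exon, and *Eif2ak3* at chr6:70844515-70905245 on the plus strand, with 6026 bases. The RefSeq sequence of the 250 bases before the start of each of these genes is shown because they are the genes whose mRNA differed. RefSeq windows (GRCm38.p6) were matched for 6 of the 7 genes, all but *Ppp1r15b*. Capitals mark matches to the cAMP response element TGACGTCA in the first sequence and to CCAAT, on either strand, in the second.

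*Ppp1r15a*, chr7:45526269-45526518, minus strand: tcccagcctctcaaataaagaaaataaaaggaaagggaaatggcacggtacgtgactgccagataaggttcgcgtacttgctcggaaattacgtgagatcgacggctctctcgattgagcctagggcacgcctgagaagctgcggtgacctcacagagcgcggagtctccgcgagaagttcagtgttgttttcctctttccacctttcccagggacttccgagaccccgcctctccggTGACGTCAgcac
*Eif2ak3*, chr6:70844265-70844514, plus strand: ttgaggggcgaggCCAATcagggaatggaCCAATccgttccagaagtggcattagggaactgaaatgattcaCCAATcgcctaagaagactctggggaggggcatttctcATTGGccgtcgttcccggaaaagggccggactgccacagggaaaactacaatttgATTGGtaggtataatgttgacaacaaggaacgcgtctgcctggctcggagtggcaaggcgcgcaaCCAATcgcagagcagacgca

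The *Ppp1r15a* window held 1 palindromic match to TGACGTCA, beginning 12 bases before the start, which 1.55% of 32851 RefSeq promoter windows of this length had. It also held a match to GAAANNGAA, the core of the interferon-stimulated response element, 220 bases before the start (7.13% of windows). The *Eif2ak3* window held 6 matches to CCAAT, of which 4 were on the strand of the gene. A match to CCAAT was present in 33.9% of windows, and 6 or more were present in 0.0578%. *Eif2ak1* had 1 match to CCAAT, and none of the 4 letter patterns searched was found before the starts of *Eif2ak2*, *Eif2ak4* or *Oma1*. The ATF4 and CHOP composite element TGATGNAA (3.45% of windows) was found in none of the windows of these genes, those of *Ppp1r15a* and *Eif2ak3* included. The matches given are of letters and not measured sites.

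Levels below are RQ, which relates a count to the geometric mean count of 4 housekeeping genes (*Sdha*, *Mrfap1*, *Actb* and *Actg1*) of that library, in percent. To compare genes with each other, RQ was divided by exon length in kb. On this scale the 7 mRNAs were within a narrow range in WT cultures. *Ppp1r15b* was the most abundant at 2.10 ± 0.10 (SD, n = 4) % per kb at day 8 and *Eif2ak4* the least at 0.850 ± 0.065. Between them stood *Eif2ak1* (1.95 ± 0.12), *Eif2ak3* (1.66 ± 0.05), *Eif2ak2* (1.64 ± 0.15), *Oma1* (1.41 ± 0.08) and *Ppp1r15a* (1.15 ± 0.17). Libraries overlapped between *Ppp1r15b* and *Eif2ak1*, between *Eif2ak3* and *Eif2ak2*, and between *Oma1* and *Ppp1r15a*, so these neighbours in the order were not separated. In Het cultures at day 8 each gene overlapped with the next in order.

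The order changed with time and genotype through a pair of genes. In WT at day 14, *Eif2ak3* rose to the second place at 2.12 ± 0.09% per kb, overlapping with *Eif2ak1* (1.96 ± 0.15), and *Ppp1r15a* to the fourth at 1.45 ± 0.11, overlapping with *Eif2ak2* (1.38 ± 0.21). In Het at day 14, *Ppp1r15a* was in the first place by its mean, at 2.45 ± 0.51% per kb, overlapping with *Ppp1r15b* (2.31 ± 0.39). At day 21 *Ppp1r15b* was again the highest in both genotypes (2.34 ± 0.22 in WT and 2.44 ± 0.08 in Het), and in Het the *Ppp1r15a* libraries (2.27 ± 0.24) overlapped with it. *Eif2ak4* was the lowest in all 6 groups, at 0.632 to 0.850% per kb.

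**Figure D1:**
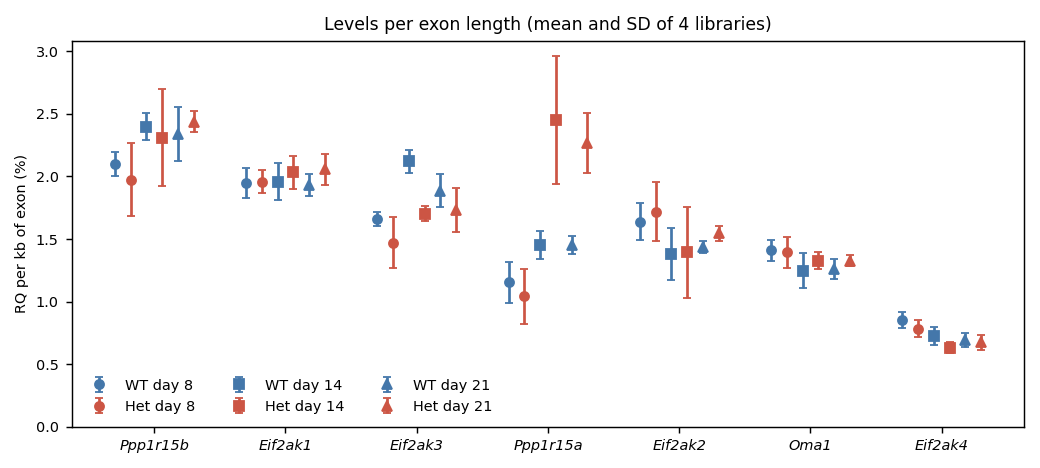
Level of each gene per kb of exon (RQ in percent per kb, vertical axis) in the 6 groups, as mean and SD of 4 libraries, with WT in blue, Het in red and a marker shape per day. *Ppp1r15a* is the gene that moves most between groups, from 1.04 in Het at day 8 to 2.45 in Het at day 14, while *Eif2ak4* stays the lowest.

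*Ppp1r15a* mRNA was higher in Het than in WT cultures at days 14 and 21. GADD34, its product, is the stress-inducible partner of PP1. At day 14 its RQ was 4.61, 4.47, 3.88 and 4.10% in WT replicates 1 to 4 and 5.29, 8.95, 7.51 and 7.05% in Het. At day 21 it was 4.12, 4.11, 4.56 and 4.28% in WT and 5.84, 7.05, 7.40 and 6.36% in Het. All 8 Het libraries were above all 8 WT libraries, and the replicate 1 library was the lowest of the Het libraries on each day.

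The mean was 6.93 ± 1.13% (SD, n = 8) in Het and 4.27 ± 0.26% (n = 8) in WT, a ratio of 1.63. The log2 fold change was 0.70 (SE 0.085, 95% interval 0.52 to 0.88), with an adjusted p of 0.000173 over 18857 genes (edgeR quasi-likelihood test). Of these genes 7.86% were called higher in Het and 9.76% lower. This split of 1482 higher and 1840 lower turned over under the other scalings, to 2414 and 1620 with TMM, 2553 and 1509 with DESeq2's size factors and 3345 and 1052 with total counts, and the replicate block gave 1849 and 2838. Of the 7 genes 1 was called higher and 1 lower. An exact permutation test of RQ gave p = 0.000155, the smallest that 8 against 8 libraries allow, and 0.0163 adjusted over all genes. Here and for *Eif2ak3* below, this test regrouped the libraries without regard to day or replicate number. Libraries that share a preparation are not independent, so its p describes the separation of these libraries only.

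The difference was present in both sets of replicates and differed in size between them. The ratio of Het to WT was 1.28 in replicate 1 (2 libraries per genotype) and 1.75 in replicates 2 to 4 (6 per genotype). Leaving out any replicate number or any single library kept the call, with log2 fold changes of 0.63 to 0.80. Taken alone, day 21 gave 0.64 (adjusted p = 0.0106) and day 14 gave 0.76 (adjusted p = 0.0795), where no library overlapped between genotypes but 34 genes in all were called.

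At day 8 the direction was the opposite, without passing the test. *Ppp1r15a* RQ was 4.12, 3.05, 3.19 and 3.19% in WT and 3.96, 2.46, 3.01 and 2.81% in Het. Each Het library was below the WT library of the same number, but the groups overlapped because replicate 1 was high in both. The log2 fold change was −0.15 (SE 0.16, 95% interval −0.50 to 0.21, adjusted p = 0.814, edgeR). The test called 0% of 18222 genes at day 8 (1817 had an unadjusted p under 0.05), and DESeq2's Wald test called 435, none of them among the 7. With the replicate number as a block edgeR called 285 genes, again none of the 7.

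The genotype effect on *Ppp1r15a* differed between the later days and day 8. The difference of the 2 log2 fold changes was 0.85 (SE 0.17, 95% interval 0.49 to 1.21, adjusted p = 0.0473, edgeR), in a comparison that called 0.166% of 20434 genes higher and 1 gene lower. Of the 7 genes, *Ppp1r15a* was the one called. This call was close to the threshold. It was lost for day 14 alone (0.91, adjusted p = 0.134) and day 21 alone (0.79, adjusted p = 0.248) against day 8, when genes needed at least 10 counts in every library (adjusted p = 0.0508) and without replicate 2, 3 or 4 (adjusted p = 1.00 each, differences of 0.73 to 0.84), and the adjusted p was 5.69e-05 without replicate 1. The replicate block left the call in place (adjusted p = 0.0416) and called 67 genes in all against 35.

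On the housekeeping scale *Ppp1r15a* rose over time in both genotypes. In WT the mean went from 3.39 ± 0.49% at day 8 to 4.27 ± 0.33% at day 14 and 4.27 ± 0.21% at day 21, and in Het from 3.06 ± 0.64% to 7.20 ± 1.51% and 6.66 ± 0.70% (n = 4 each). The later Het libraries (5.29 to 8.95%) did not overlap with day 8 (2.46 to 3.96%), whereas in WT the later libraries (3.88 to 4.61%) overlapped with the day 8 library of replicate 1. Days 14 and 21 together were 1.26 times day 8 in WT and 2.26 times in Het. In fits within each genotype the log2 fold change was 0.34 in WT (adjusted p = 0.00357) and 1.18 in Het (adjusted p = 6.79e-05, edgeR).

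**Figure D2:**
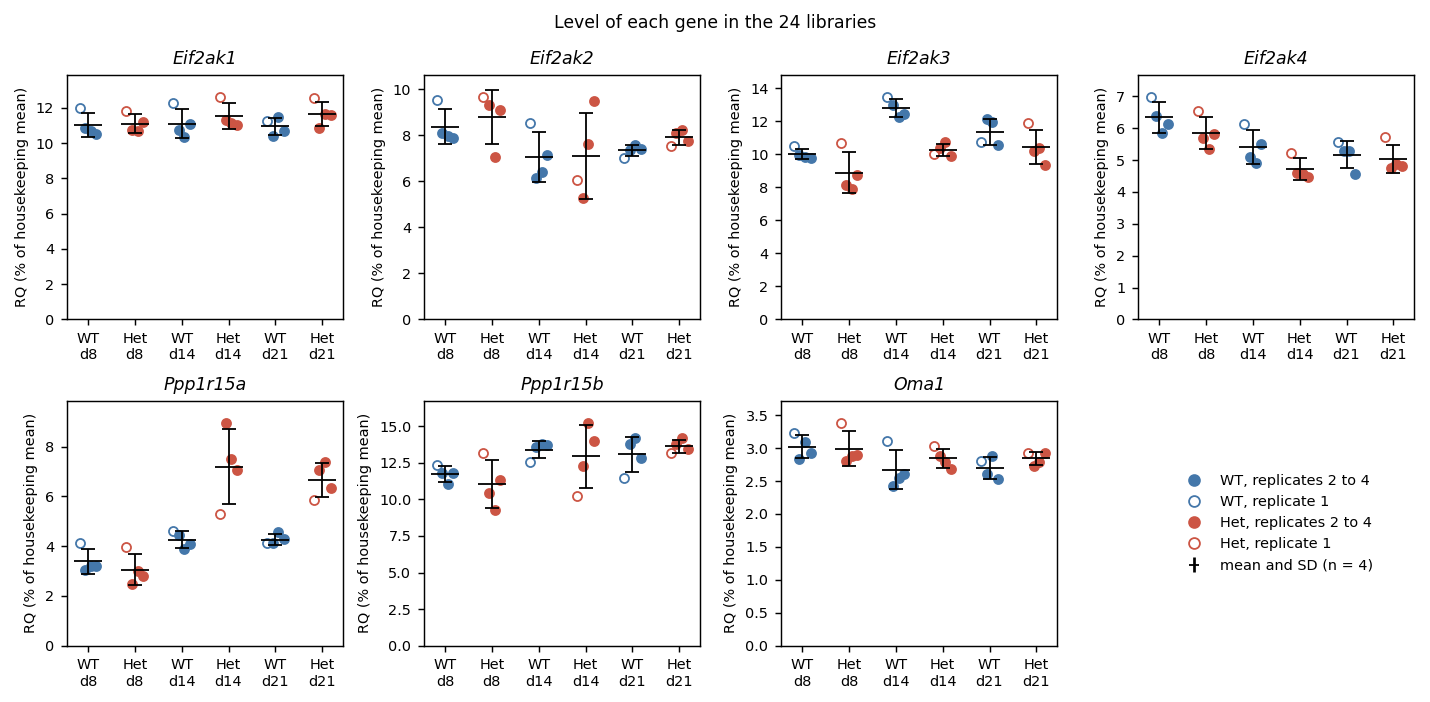
RQ of each gene (percent of the housekeeping mean, vertical axis from 0) in every library of the 6 groups, with replicate 1 as open points and bars for the mean and SD of 4 libraries. For *Ppp1r15a* the 8 Het libraries of days 14 and 21 sit between 5.29 and 8.95%, above all WT libraries, and for *Eif2ak3* the Het libraries of day 14 (9.90 to 10.8%) sit below those of WT (12.3 to 13.5%).

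*Eif2ak3* moved the other way. PERK, its product, is the eIF2α kinase of the ER. Its RQ at day 14 was 13.48, 12.96, 12.25 and 12.44% in WT replicates 1 to 4 and 10.03, 10.39, 10.75 and 9.90% in Het. At day 21 it was 10.76, 12.14, 11.96 and 10.59% in WT and 11.87, 10.18, 10.37 and 9.34% in Het. Genotypes did not overlap at day 14, and at day 21 the replicate 1 pair went against the others, with Het above WT. The share of all genes without overlap at day 14 was not counted. In the fit of that day alone, 3474 of 18368 genes had an unadjusted p under 0.05 (edgeR).

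Over both days the mean was 10.4 ± 0.7% (n = 8) in Het and 12.1 ± 1.0% (n = 8) in WT, a ratio of 0.858, and Het was lower in 7 of 8 pairs with the same number and day. The log2 fold change was −0.22 (SE 0.055, 95% interval −0.34 to −0.10, adjusted p = 0.0138, edgeR), and the exact permutation test gave p = 0.00171 and 0.0384 adjusted over all genes. The change was under the 20% that the study's own rule for a changed gene asks for. The ratio was 0.903 in replicate 1 and 0.842 in replicates 2 to 4.

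This call was less firm than that of *Ppp1r15a*. It stood without any single library (adjusted p of 0.00142 to 0.0329) and without replicate 1 (0.000822). It was lost without replicate 2 (adjusted p = 0.152), replicate 3 (0.109) or replicate 4 (0.136), and at day 14 alone (log2 fold change −0.32, adjusted p = 0.0889) and day 21 alone (−0.12, adjusted p = 0.419), each with fewer libraries. *Col1a2* lies on the same chromosome as *Eif2ak3*, at chr6:4504814-4541544, 66.3 Mb away. Of 20 other tested genes within 1 Mb of *Eif2ak3*, 1 was called higher and 1 lower, with a median log2 fold change of 0.04.

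At day 8 *Eif2ak3* RQ was 10.5, 9.95, 9.85 and 9.76% in WT and 10.7, 8.17, 7.90 and 8.76% in Het. In replicates 2 to 4 Het was below every WT library, at 0.840 of their mean, and in replicate 1 it was 1.02 times WT. With all 8 libraries the log2 fold change was −0.18 (SE 0.097, 95% interval −0.40 to 0.04, adjusted p = 0.606, edgeR). Without replicate 1 it was −0.25 and called (adjusted p = 0.0162), among 3432 genes called in that fit, and without the Het replicate 1 library alone it was −0.27 and called (adjusted p = 0.0321, 1610 genes). The genotype effects at the later days and at day 8 differed by −0.04 (95% interval −0.25 to 0.17, adjusted p = 1.00).

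The antisense transcript *Gm43292* shares 485 exonic bases with *Eif2ak3*. It had 7669 counts over the 24 libraries against 54791 for *Eif2ak3*. Whether reads were counted by strand is not given in the sources used here, so a part of these reads cannot be assigned to either gene with certainty.

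**Figure D3:**
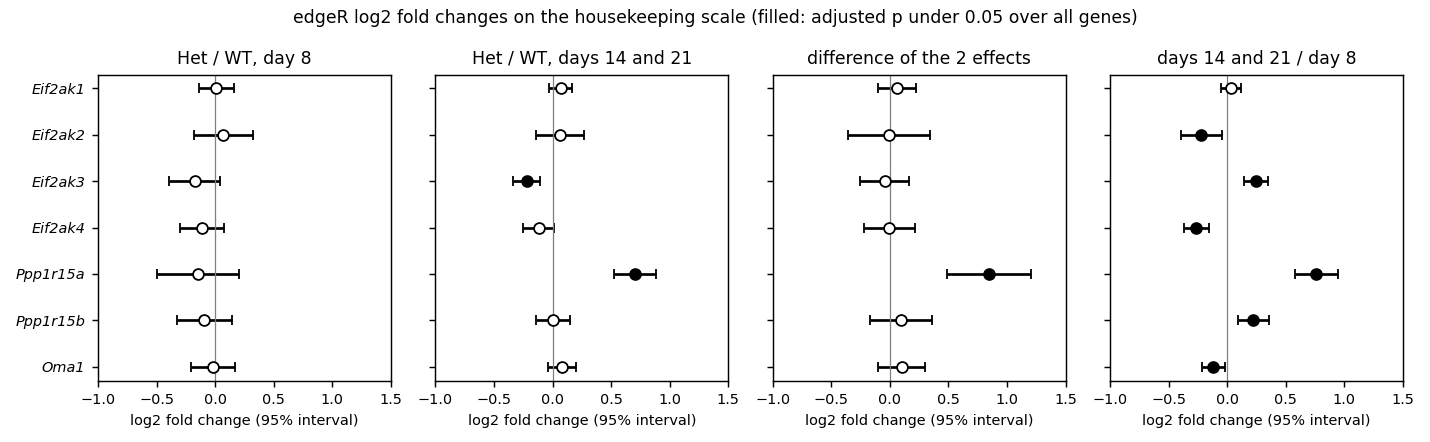
edgeR log2 fold changes with 95% intervals (horizontal axis) of the 7 genes in 4 comparisons, filled where the adjusted p over all genes was under 0.05. At days 14 and 21 *Ppp1r15a* (0.70) and *Eif2ak3* (−0.22) are filled, at day 8 none is, and over time 6 of 7 are.

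The other kinases did not pass the test for a genotype difference. *Eif2ak4* encodes GCN2, which is switched on by amino acid shortage. At days 14 and 21 its RQ ran from 4.47 to 5.71% in Het, with a median of 4.78%, and from 4.56 to 6.12% in WT, with a median of 5.29%, with a log2 fold change of −0.12 (95% interval −0.25 to 0.01, adjusted p = 0.196, edgeR). Het was below WT in all 4 numbered pairs at day 8 and at day 14 and in 2 of 4 at day 21. *Impact*, whose product inhibits GCN2, was lower in Het by a log2 fold change of −0.25 (adjusted p = 0.0161).

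*Eif2ak2* encodes PKR and is itself an interferon-stimulated gene. It varied most among the Het libraries of day 14, where its RQ was 6.05, 5.29, 7.65 and 9.51% in replicates 1 to 4, a wider range than WT (6.16 to 8.53%). At day 21 both genotypes were tighter, at 7.03 to 7.59% in WT and 7.54 to 8.23% in Het, with 3 of 4 Het libraries above all WT libraries. The log2 fold change over both days was 0.06 (95% interval −0.14 to 0.27, adjusted p = 0.696, edgeR), and it was −0.01 without the Het day 14 library of replicate 4. Among 14889 genes compared, those with a profile close to that of *Eif2ak2* over the 24 libraries included *Ddx58* (Pearson r = 0.833) and *Cenpj* (0.827).

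*Eif2ak1* encodes HRI and was the steadiest of the 7 in mean level. Its group means were all between 10.96 and 11.66% of the scaling mean. At days 14 and 21 Het was above WT in 7 of 8 numbered pairs, with a log2 fold change of 0.07 (95% interval −0.03 to 0.17, adjusted p = 0.304, edgeR). This depended on the scale, since it was 0.12 with TMM, 0.13 with DESeq2's size factors and 0.17 with total counts, and called each time (adjusted p = 0.0341, 0.0242 and 0.0122). *Aimp2* and *Ankrd61*, on the other strand, share 487 and 172 exonic bases with *Eif2ak1*, and *Aimp2* had 28069 counts against 57972 for *Eif2ak1*.

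Scaled per length, the kinases as a group did not shift much. Their summed level was 6.19 ± 0.50% per kb in WT and 5.76 ± 0.29% in Het at day 14, and 5.95 ± 0.21 and 6.01 ± 0.30% at day 21 (n = 4 each), with overlap on both days. Within the sum, *Eif2ak3* held 32.5 to 36.3% in WT and 27.2 to 32.1% in Het at day 14, with no overlap. At day 21 it held 30.3 to 33.6% in WT and 26.9 to 30.7% in Het, where the Het library of replicate 1 overlapped with WT. At day 8 it held 26.2 to 27.9% in WT and 23.2 to 26.7% in Het.

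*Ppp1r15b*, which encodes the constitutive subunit CReP, had a log2 fold change of 0.0046 at days 14 and 21 (95% interval −0.14 to 0.15, adjusted p = 0.976, edgeR). Its RQ ran from 11.5 to 14.2% in WT and from 10.2 to 15.2% in Het, with medians of 13.7% and 13.6% and the widest spread in Het at day 14. It shares 640 exonic bases with the antisense transcript *Gm26616* (5522 counts against 66390). The *Ppp1r15a* to *Ppp1r15b* ratio, per length, shows how the balance between both subunit mRNAs stood in each library. At day 14 it was 0.702, 0.626, 0.536 and 0.569 in WT replicates 1 to 4 and 0.985, 1.39, 0.941 and 0.961 in Het. At day 21 it was 0.684, 0.567, 0.612 and 0.636 in WT and 0.846, 0.975, 0.993 and 0.903 in Het. The Het libraries were above all WT libraries on both days, and at day 8 the ratio was 0.493 to 0.634 in WT and 0.450 to 0.620 in Het.

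**Figure D4:**
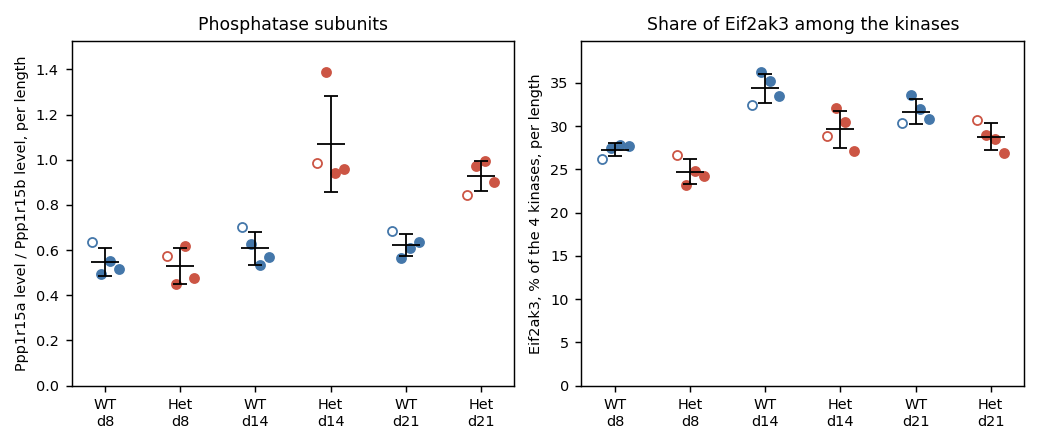
The ratio of *Ppp1r15a* to *Ppp1r15b* per length (left) and the share of *Eif2ak3* in the summed level of the 4 kinases per length (right, percent), by library, with replicate 1 as open points and the mean and SD of 4 libraries. The ratio is 0.846 to 1.39 in Het and 0.536 to 0.702 in WT at days 14 and 21, and the *Eif2ak3* share at day 14 is 27.2 to 32.1% in Het and 32.5 to 36.3% in WT.

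*Oma1* encodes a protease of the inner mitochondrial membrane that cleaves DELE1 and OPA1 under stress. Its RQ was 2.43 to 3.11% in WT and 2.69 to 3.03% in Het at days 14 and 21, with a log2 fold change of 0.08 (95% interval −0.04 to 0.20, adjusted p = 0.322, edgeR). It was 0.14 with DESeq2's size factors and 0.18 with total counts, and called in both (adjusted p = 0.0473 and 0.0248), whereas TMM gave 0.13 (adjusted p = 0.0593).

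Between day 8 and the later days 6 of the 7 genes moved on the housekeeping scale, in both directions. In this comparison 40.9% of 20434 genes were called higher and 17.4% lower, and the median gene was higher by 0.16 (log2). Besides *Ppp1r15a* (0.76, adjusted p = 1.93e-07), *Eif2ak3* (0.25, adjusted p = 0.000272) and *Ppp1r15b* (0.22, adjusted p = 0.00509) were called higher. *Eif2ak4* (−0.26, adjusted p = 0.000164), *Eif2ak2* (−0.22, adjusted p = 0.0269) and *Oma1* (−0.12, adjusted p = 0.0355) were called lower, and *Eif2ak1* was at 0.03 (95% interval −0.05 to 0.11, adjusted p = 0.529, edgeR).

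These directions rest in part on the scale. The median of all genes was 0.16 with the housekeeping scale, 0.02 with DESeq2's size factors, −0.02 with TMM and −0.14 with the total count, and the split of calls went from 8351 higher and 3560 lower to 6145 and 6049, 5601 and 6692, and 4339 and 8805. Relative to the median gene, *Ppp1r15a* rose by 0.60, *Eif2ak3* and *Ppp1r15b* were within 0.09 of it, and *Eif2ak4*, *Eif2ak2*, *Oma1* and *Eif2ak1* were below it by 0.13 to 0.42. *Ppp1r15b* was not called with TMM (0.05, adjusted p = 0.519) or DESeq2's size factors (0.08, adjusted p = 0.237). With the total count *Eif2ak3* and *Ppp1r15b* turned to −0.05 and −0.07 (adjusted p = 0.171 and 0.302), and *Eif2ak1* was called lower under all other scalings (−0.15 with TMM, −0.11 with DESeq2's size factors, −0.27 with total counts). Within genotypes 5 of the 7 genes were called in WT, where *Oma1* was not (adjusted p = 0.0604), and 2 in Het, *Ppp1r15a* higher and *Eif2ak4* lower. Calls over all genes also fell, from 10405 of 19124 in WT to 7691 of 19086 in Het. *Ppp1r15b* was not called without replicate 2 or 3, *Eif2ak2* without replicate 1 or 2, and *Oma1* without replicate 2, 3 or 4. The *Eif2ak3* rise was clearest in WT, where the libraries of days 14 and 21 (10.6 to 13.5%) were all above those of day 8 (9.76 to 10.5%).

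Between days 14 and 21 none of the 7 genes was called, in a comparison where 20.6% of 18857 genes were. The log2 fold changes were between −0.07 (*Eif2ak3*) and 0.10 (*Eif2ak2*). In WT the 4 *Eif2ak3* libraries of day 21 (10.6 to 12.1%) were below those of day 14 (12.3 to 13.5%), a ratio of 0.889. *Eif2ak3* was called lower at day 21 over both genotypes under each other scaling, with TMM (−0.14, adjusted p = 0.0191), with size factors of DESeq2 (adjusted p = 0.0437) and with total counts (adjusted p = 0.0433).

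The partners and targets of these genes were then examined at days 14 and 21, in lists chosen with earlier results of these data known. The list of ATF4 and CHOP targets holds genes that the study reported as raised, such as *Trib3* and *Eif4ebp1*. So do the list of mRNAs controlled by upstream reading frames (*Atf5* and *Ddit3*) and that of other translation factors (*Eif3c*). The counts of calls in these lists are therefore not independent of that report. The background for each count is the 7.86% of all genes tested that were called higher and the 9.76% called lower. Genes downstream of eIF2α phosphorylation were higher in Het. Of 25 targets of ATF4 and CHOP 22 were called higher and 1 lower, with a median log2 fold change of 0.64 against −0.05 for all genes tested. *Trib3*, a pseudokinase that binds ATF4 and CHOP, was at 2.78 (adjusted p = 2.55e-08), *Gdf15*, a secreted stress cytokine, at 1.33 (adjusted p = 2.83e-05) and *Slc3a2*, a subunit of amino acid transporters, at 0.64 (adjusted p = 0.000197). *Ddit4* was at 0.37 (adjusted p = 0.0614), and *Vldlr*, a lipoprotein receptor, was the gene called lower (−0.23, adjusted p = 0.0393).

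Of 9 mRNAs whose translation is controlled by upstream reading frames 6 were called higher, with a median of 0.39. *Ddit3*, which encodes CHOP, was at 1.20 (adjusted p = 2.77e-06), *Atf5* at 0.69 (adjusted p = 0.000125) and *Slc7a1*, an arginine transporter, at 0.39 (adjusted p = 0.00244). *Atf4* itself, named after its value was seen, was at 0.26 (adjusted p = 0.0275), and *Slc35a4* was at −0.06 (adjusted p = 0.657). The genes whose profile over the 24 libraries was most like that of *Ppp1r15a* were *Stard5* (Pearson r = 0.975), *Slc3a2* (0.973) and *Ddit3* (0.973). These libraries share genotype, day and batch structure, so the correlations describe these profiles and carry no test.

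Genes acting on the kinases and at eIF2 itself had medians closer to 0. Of the 8 subunits of eIF2 and of its exchange factor eIF2B 3 were called higher, beside 7.86% of all genes, and all 8 had positive values, with a median of 0.16. They were *Eif2s3x* (0.21, adjusted p = 0.0138), *Eif2b3* (0.31, adjusted p = 0.0160) and *Eif2s2* (0.32, adjusted p = 0.0269), whereas *Eif2s1*, which encodes eIF2α, was at 0.11 (adjusted p = 0.346). Of 12 regulators of the kinases 1 was called higher and 1 lower, a share near that of all genes (7.86% and 9.76%). They were *Hsp90ab1*, a chaperone (0.20, adjusted p = 0.0423), and *Impact* (−0.25, as above). *Dnajc3*, whose product inhibits PERK and PKR, was at −0.07 (adjusted p = 0.319). None of the 3 PP1 catalytic subunits or the inhibitor *Ppp1r2* was called by edgeR (0 of 4, also at 0 with the replicate block), and *Ppp1ca* was at 0.13 (adjusted p = 0.0996). Under each of the other scalings 2 of these 4 were called higher.

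Around OMA1, 3 of 10 genes were called higher, where 7.86% of all genes were, with a median of 0.01. These were the prohibitins *Phb2* (0.24, adjusted p = 0.00110) and *Phb* (0.19, adjusted p = 0.0185) and the rhomboid protease *Parl* (0.15, adjusted p = 0.0278), and *Dele1* was at −0.03 (adjusted p = 0.748). Of 11 heme and iron genes 3 were called higher, namely *Fth1* (0.38, adjusted p = 0.0183), *Hmox1* (0.30, adjusted p = 0.0279) and *Ftl1* (0.25, adjusted p = 0.0389), while *Fech*, the last enzyme of heme synthesis, was at −0.09 (adjusted p = 0.190). The first 2 encode a ferritin chain and heme oxygenase. The median of this list was −0.03 and turned positive under the other scalings (0.02 with TMM and 0.06 with the total count). Among 8 genes of other brakes and factors of translation *Eif3c*, a subunit of eIF3, was called higher (0.52, adjusted p = 0.000384), and the cap-binding factor *Eif4e* was at 0.06 (adjusted p = 0.635).

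Many of these calls rest on the full set of libraries. Of the 26 list genes named above or below as called, 6 (*Atf5*, *Ddit3*, *Trib3*, *Slc3a2*, *Gdf15* and *Eif3c*) kept the call without any library or replicate number. The calls of 20 were lost without at least 1 replicate number, and 7 of them without a single library as well, namely *Atf4*, *Vldlr*, *Eif2s2*, *Hsp90ab1*, *Parl*, *Hmox1* and *Ftl1* (highest adjusted p of 0.0600, 0.0804, 0.0565, 0.0882, 0.0615, 0.0599 and 0.0833, edgeR). With the replicate block 24 of the 25 ATF4 and CHOP targets and 4 of the 8 eIF2 and eIF2B subunits were called higher. So were 4 of the 11 heme and iron genes and 9 of the 26 interferon-stimulated genes described next. Of the 10 genes around OMA1, 1 was called lower. That fit called 1849 higher and 2838 lower of all 18857 genes.

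**Figure D5:**
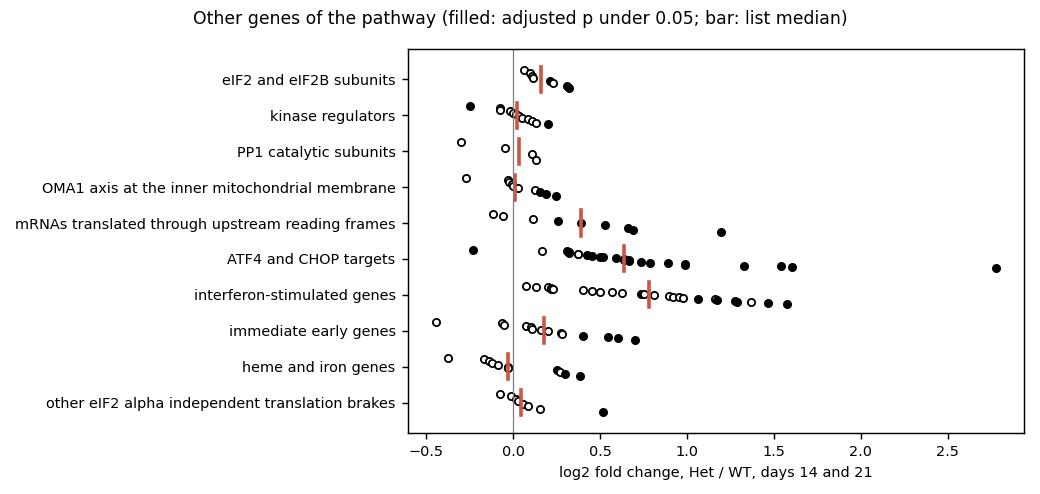
log2 fold changes of Het over WT at days 14 and 21 (horizontal axis) for the genes of 10 lists around the 7 genes, filled where the adjusted p over all genes was under 0.05, with a red bar at the median of each list. Filled points stand mostly on the right in the ATF4 and CHOP targets (22 of 25, median 0.64) and close to 0 in the kinase regulators (2 of 12, median 0.02).

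Interferon-stimulated genes, among which *Eif2ak2* is usually counted, were higher in Het by their median, and *Eif2ak2* was at 0.06. All 26 had positive values, with a median of 0.78, and 8 were called higher, among them *Oas1a* (1.29, adjusted p = 0.00538), *Parp14* (1.06, adjusted p = 0.00855) and *Oas2* (1.17, adjusted p = 0.0167), sensors and effectors of the antiviral response, with *Isg15* at 0.92 (adjusted p = 0.0991). Without replicate 1, 22 of 26 were called higher, where 3293 of 18967 genes were. The summed level of the 26 went the other way in replicate 1. It was 45.9% of the scaling mean in Het and 65.5% in WT at day 14, and 62.7 and 68.7% at day 21. Replicates 2 to 4 were at 54.9 to 120% in Het and 40.5 to 49.0% in WT at day 14. At day 21 they were at 78.5 to 85.4% in Het and 58.9 to 61.3% in WT. Of 14 immediate early genes, which *Ppp1r15a* resembles in its quick induction in many cells, 5 were called higher, led by *Ier2* (0.60, adjusted p = 0.000614), *Egr2* (0.70, adjusted p = 0.00791) and *Fos* (0.55, adjusted p = 0.00799), with *Egr1* at 0.28 (adjusted p = 0.206). At day 8 no gene of any of these lists was called by edgeR (0% of all genes tested, as above), and the median was 0.05 for the ATF4 and CHOP targets, 1.40 for 23 tested interferon-stimulated genes and −0.07 for all genes.

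Markers of cell types moved along with genotype at days 14 and 21. Of 9 OB markers 6 were called lower in Het (median −0.41), and all 9 with the replicate block or without replicate 1. Calls over all genes rose too, from 1840 of 18857 lower to 2838 with the block and to 4243 of 18967 without replicate 1. All 4 chondrocyte markers had negative values (median −0.88). None was called without the block, and all 4 were called lower with it (median −1.47) and without replicate 1 (median −1.996). Their summed level at day 14 was 175 to 283% of the scaling mean in Het replicates 2 to 4 against 762 to 1454% in WT, but 2534% in Het and 2362% in WT in replicate 1. At day 21 it was 160 to 230% in Het replicates 2 to 4 against 631 to 921% in WT, and 1318% against 1264% in replicate 1.

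Among other cell types, 5 of 8 macrophage and osteoclast markers were called higher (*Cd68*, *Csf1r*, *Adgre1*, *Lyz2* and *Ptprc*, median 0.92). Of the 8, 6 had positive values, and *Cd33* and the osteoclast markers *Acp5* and *Ctsk* were not called. The summed level of the 8 was 206 to 443% of the scaling mean in WT and 308 to 703% in Het at day 14, and 575 to 671% in WT and 730 to 1569% in Het at day 21, with no overlap at day 21. At day 14 replicate 1 went the other way, with 443% in WT and 308% in Het. Replicates 2 to 4 were then at 206 to 276% in WT and 642 to 703% in Het. The OB markers summed to 18320 to 33020% in WT and 17000 to 23310% in Het at day 14, and to 31470 to 34010% in WT and 20220 to 28460% in Het at day 21, with no overlap at day 21. In bulk RNA, fewer cells of a type and less RNA per cell cannot be told apart, and the part of cell composition in the *Ppp1r15a* and *Eif2ak3* differences was not tested. *Kdr*, *Dpt* and *Myh11* were the other markers called higher, and 1 of 2 tested adipocyte markers was called lower with the replicate block and 0 without it.

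Among themselves the 7 genes showed no common profile over the 24 libraries. The highest Pearson r between any pair was 0.642, for *Eif2ak3* and *Ppp1r15b*, followed by 0.636 for *Eif2ak4* and *Oma1* and 0.609 for *Eif2ak1* and *Oma1*, and the lowest was −0.647, for *Eif2ak4* and *Ppp1r15a*. All share their scaling within a library. Genes with the most similar profile were *Zscan18* (r = 0.949), *Srpr* (0.943) and *Araf* (0.940) for *Eif2ak3*, and *Slc43a3* (0.940), *Thsd7a* (0.931) and *Fam20b* (0.921) for *Eif2ak4*. They were *Samd8* (0.927), *Mdm4* (0.924) and *Zfc3h1* (0.918) for *Ppp1r15b*, *Tomt* (0.898), *Ercc3* (0.893) and *G6pdx* (0.890) for *Oma1*, and *Pigq* (0.852), *Gmpr2* (0.851) and *Usp4* (0.848) for *Eif2ak1*.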

How the data were processed

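Polyadenylated RNA of 24 cultures was sequenced from Illumina TruSeq libraries. The authors deposited a table of raw read counts over genes for each library. The submitters' processing notes name cutadapt 2.5, STAR 2.73a, Subread, featureCounts 1.6.4 and mm10; the strand setting and the treatment of reads matching several genes are not given in the sources used here. No molecular identifiers were used. Total counts were 17140202 to 59734231 per library, so counting error was small beside the spread between libraries. Replicates differed beyond sampling noise in all 36 pairs (chi-square per degree of freedom of 4.78 or more).

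RQ was computed after the study from 4 housekeeping genes. Tests across genes used edgeR 4.0.16 in R 4.3.3 on the raw counts (quasi-likelihood F-test, filterByExpr), scaled by the same housekeeping mean, with Benjamini-Hochberg adjustment over all genes tested and a threshold of 0.05. Day was a covariate at days 14 and 21. Replicates are wells, so p-values measure the spread between these samples. Coordinates came from GENCODE M21, with identical gene versions for 54587 of 55335 genes; promoter sequences came from RefSeq. A symbol with several entries was read from its most counted entry. Named genes were the 7 genes, the scaling genes, up to 3 called genes of each list with the smallest adjusted p, a gene of the list that was not called, and for each of the 7 the 3 genes with the highest Pearson r (log2 values, mean count of at least 50.0), of which 1 gene is not reported here. The 7 genes and the lists were chosen with earlier results of these data known.

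Deviations from the group means correlated between same-numbered WT and Het libraries in all 12 cases (0.195 to 0.713, median 0.482; among replicates 2 to 4, 0.018 to 0.367), and had a median of −0.123 between unlike numbers (36 cases). The numbers were therefore taken to pair the samples, and blocked values are given where they change a call of the 7 genes or a count given for a list or for all genes. The alternatives were other scalings (total count, TMM, size factors of DESeq2, omission of each housekeeping gene), DESeq2 1.42.0, other filters, batch covariates, single days or genotypes, exact permutation tests and leaving out replicates or libraries. Each step was tested on simulated counts.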

Additional observations from a re-analysis of the deposited data

Results flagged for a closer look

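In groups of 4 libraries, 6 of the 42 sets formed by a gene and a group held a library far from the other 3, by a gap, relative to the range, past Dixon's 95% critical value; chance flags about 5 in 100. In all 6 it was the highest library and the one of replicate 1. These were *Eif2ak1* in Het at day 14 (RQ 12.6%, against 11.1 to 11.3% in the others), *Eif2ak2* in WT at day 8 (9.52%, others 7.90 to 8.11%), *Eif2ak4* in Het at day 14 (5.23%, others 4.47 to 4.59%) and at day 21 (5.71%, others 4.76 to 4.87%), *Ppp1r15a* in WT at day 8 (4.12%, others 3.05 to 3.19%) and *Oma1* in Het at day 8 (3.38%, others 2.80 to 2.89%). Replicate 1 was also shallower and differed in *Mrfap1* and *Sdha*, which enter the scale; the part of depth and scale in these values was not tested.

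The genotype effect on *Ppp1r15a* differed between days 14 and 21 and day 8 by 0.85 on the log2 scale (adjusted p = 0.0473, edgeR). It was 0.70 at the later days and −0.15 at day 8. Het was above WT in 8 of 8 same-numbered pairs at the later days and in 0 of 4 at day 8.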

How the results depend on the processing

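The *Ppp1r15a* call at days 14 and 21 held under all alternatives except day 14 alone (0.76), and that of *Eif2ak3* under all except day 14 alone (−0.32), day 21 alone (−0.12) and leaving out replicate 2, 3 or 4 (all values without a replicate or library −0.257 to −0.197). The *Ppp1r15a* difference between the later days and day 8 was not called with at least 10 counts in every library (0.85), for day 14 (0.91) or day 21 (0.79) against day 8, and went from 0.73 to 0.99 without a replicate. The replicate block changed no call of the 7 genes in any comparison. Wells that share a pool of pups, and the lower depth of replicate 1, limit all of these.

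Genes called at days 14 and 21 (3322) became 5086 with replicate 1 as a covariate, 34 and 368 at day 14 and day 21 alone, 1388 without the day covariate, 1130 by the permutation test and 141 to 7536 without a replicate (2198 to 4950 without a library). At day 8 (0) they became 435 with DESeq2, 285 with the replicate block, 704 with replicate 1 as a covariate, 129 with all 24 libraries and 0 to 3432 without a replicate (0 to 1610 without a library). For the difference (35) they became 91 with DESeq2, 19 with at least 10 counts, 67 with the block, 73 with the covariate, 12 for day 14 and 9 for day 21, and 0 to 928 without a replicate. For days 14 and 21 against day 8 (11911) they became 7691 in Het alone. For day 21 against day 14 (3886) they became 69 in Het alone and 1714 to 5560 without a replicate. The causes were not tested.

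Of 413 values of the 7 genes under other settings 31 changed sign, 17 lost and 8 gained a call, and of 308 without a replicate or library 30, 13 and 2. Genes called in the main analysis that changed sign were *Eif2ak3* (−0.0536) and *Ppp1r15b* (−0.0749) over time with the total count, and *Eif2ak1*, not called there, became −0.150 with TMM, −0.113 with size factors and −0.270 with the total count. All other changes of sign were of values not called on either side. At days 14 and 21 they were *Ppp1r15b* at day 14 alone (−0.0512) and without *Mrfap1* (−0.0031) or *Sdha* (−0.0084), its range without a replicate or library being −0.0312 to 0.0525, and *Eif2ak2* without a replicate or library (−0.0118 to 0.151). Among list genes they were *Dnajc3* (0.0166), *Slc35a4* (0.0339) and *Fech* (0.0036) with the total count, *Dele1* with TMM (0.0156), size factors (0.0254), the total count (0.0636) and without a replicate (−0.0928 to 0.0052), and *Eif4e* without a replicate (−0.0141 to 0.159). At day 8 they were *Oma1* with TMM (0.0780), size factors (0.0739) and the total count (0.0718), its range otherwise −0.0786 to 0.0148, and *Eif2ak1* (−0.0199 to 0.0536). In the difference they were *Eif2ak2* with the total count (0.0012) and at day 21 (0.0362), *Eif2ak3* (0.0519) and *Eif2ak4* (0.0757) at day 21, with ranges without a replicate of −0.120 to 0.0633, −0.0950 to 0.0053 and −0.0088 to 0.0075. Between days 14 and 21 they were *Eif2ak1* with DESeq2 (0.0001), the covariate (0.0004) and in Het (0.0167), *Eif2ak3* in Het (0.0221), *Eif2ak4* with TMM (−0.0469), size factors (−0.0290), the total count (−0.0345) and in WT (−0.0629), *Ppp1r15a* in WT (0.0040), *Ppp1r15b* with TMM (−0.0413), size factors (−0.0233), the total count (−0.0264) and in WT (−0.0356), and *Oma1* with TMM (−0.0495), size factors (−0.0316) and the total count (−0.0367). Their ranges without a replicate were −0.0375 to 0.0221 for *Eif2ak1*, −0.0120 to 0.0478 for *Eif2ak4*, −0.110 to 0.0114 for *Ppp1r15a*, −0.0074 to 0.0535 for *Ppp1r15b* and −0.0184 to 0.0483 for *Oma1*.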
